A study of Mus musculus with 2 samples.

Results

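The genes described here encode the contractile filaments of smooth muscle, the dense bodies and membrane plaques that anchor them, and the enzymes, channels and transcription factors that control contraction. They are 39 named genes, chosen by symbol as contractile filament, dense body, myosin phosphatase, calcium and cGMP genes, out of 43346 mouse genes in the deposited tables, and all 39 were found there. RNA came from the stomach of 8-week-old mice of the inbred strain C57BL/6J. Polyadenylated RNA over 200 nucleotides long was sequenced in 2 libraries of 1 group, each from a pool of male and female littermates. Both libraries carry the same donor record, so whether they come from separate animals is not known, and the spread given below is that between these libraries. The design holds no treatment, other tissue or control, so the data allow a description of levels, of the difference between the replicates and of splice forms, with no test between conditions.

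In smooth muscle, calcium that enters through voltage-gated channels or leaves internal stores activates myosin light chain kinase, which phosphorylates the regulatory light chain so that myosin can pull on actin. Myosin phosphatase reverses this step, its inhibitor CPI-17 slows the reversal, and cyclic GMP made by soluble guanylyl cyclase relaxes the cell through a protein kinase. In the stomach wall this muscle mixes and moves food. Serum response factor, with its partner myocardin, is known to drive many of these genes through a short promoter element called the CArG box.

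The CArG box was looked for in RefSeq promoter windows on GRCm38.p6, which run from 250 bases before to 50 bases after a transcription start. Some genes have windows at more than 1 start, and a gene was counted if any window held a box. It is CC, then 6 bases that are each A or T, then GG, and a match on one strand is also a match on the other. Of the members, 33 had a window (Actg2, Itpr1, Myh11, Myocd, Nexn and Tagln had no entry), and 5 of the 33 (15.2%) held an exact box, beside 488 of 27025 genes in the table (1.81%). The 5 were Srf, Myl9, Myl6, Vcl and Filip1l. The box of Myl9 began 161 bases before the start, that of Vcl 227 bases, and the boxes of Srf 82 and 62 bases before it. The boxes of Myl6 and Filip1l, 50 and 62 bases before a start, belong to alternative starts that lie 1136 and 196149 bases inside the annotated gene. With 1 mismatch allowed among the inner 6 bases, 12 of the 33 members (36.4%) had a match, beside 11.3% of the genes in the table. A match describes letters only. The upstream stretches below are shown because they hold the boxes of the transcription factor gene and of myosin, membrane plaque and actin genes. Capitals mark the box, exact in the first 3 sequences and with 1 mismatch in that of Acta2. The Myl9 stretch also holds a match with 1 mismatch, 99 bases before the start, which is left in lower case. The stretches lie at chr17:46556163-46556262 (Srf, minus strand), chr2:156775293-156775392 (Myl9, plus strand), chr14:20929161-20929260 (Vcl, plus strand) and chr19:34255374-34255473 (Acta2, minus strand). The Acta2 stretch lies before a start that is 217 bases inside the annotated gene, so the stretch itself is within that gene.
Srf: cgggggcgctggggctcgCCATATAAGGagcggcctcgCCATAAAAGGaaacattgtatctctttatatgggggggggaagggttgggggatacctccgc
Myl9: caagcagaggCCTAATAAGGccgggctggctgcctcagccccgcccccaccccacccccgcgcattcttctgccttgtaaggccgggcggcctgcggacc
Vcl: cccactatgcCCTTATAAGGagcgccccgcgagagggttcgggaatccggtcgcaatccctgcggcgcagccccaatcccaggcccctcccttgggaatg
Acta2: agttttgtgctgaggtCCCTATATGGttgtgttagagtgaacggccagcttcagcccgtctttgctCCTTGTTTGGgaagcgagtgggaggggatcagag

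A second set of sequences carries the splice forms described further on. They are coding exons from GENCODE M21 transcripts, on mm10. The Myh11 exon (chr16:14248580-14248600, minus strand) lies in the part that encodes the myosin head and defines the form known as SM-B. The Flna exon (chrX:74232967-74232990, minus strand) and the Cacna1c exon (chr6:118630399-118630431, minus strand) are short exons that were joined in some transcripts and skipped in others. The pair from Tpm1 (chr9:67048124-67048249 and chr9:67047786-67047911, minus strand) are mutually exclusive exons of 126 bases, of which the nearer to the first exon is known as the smooth muscle form. In the Tpm1 pair, capitals mark the bases that differ, and 60 of the 126 bases (47.6%) were identical.
Myh11 head exon: caaggtccatcttttgcctac
Flna exon: tgtcaatcggaggtcacgggctag
Cacna1c exon: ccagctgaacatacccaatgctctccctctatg
Tpm1 exon nearer the first exon: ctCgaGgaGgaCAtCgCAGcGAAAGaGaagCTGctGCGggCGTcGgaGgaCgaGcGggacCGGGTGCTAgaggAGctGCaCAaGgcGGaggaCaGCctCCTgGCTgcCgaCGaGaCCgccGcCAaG
Tpm1 exon nearer exon 3: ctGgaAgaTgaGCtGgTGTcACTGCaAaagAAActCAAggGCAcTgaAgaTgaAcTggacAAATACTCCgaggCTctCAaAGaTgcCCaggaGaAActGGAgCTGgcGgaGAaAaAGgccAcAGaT

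Levels are in TPM, a share of all transcripts counted per unit of transcript length, so that genes can be set beside each other. The 39 members had a median level of 34.0 TPM, beside 1.15 TPM over 21474 protein-coding genes. At a TPM of at least 1 in both libraries, 33 of the 39 were detected, where 48.9% of protein-coding genes reached that level. The members spanned a wide range. A mean of at least 100 TPM was reached by 13 members, 13 lay between 10 and 100, 10 between 1 and 10, and 3 (Prkg1, Ryr2 and Nexn) were below 1. Their summed level was 9585 TPM in replicate 1 and 6897 TPM in replicate 2 (0.958% and 0.690% of all transcripts), and the 6 highest members made up 71.6% and 67.3% of that sum. Colipase and progastricsin transcripts, which dominate this tissue, set much of this scale. On a scale that omits Clps and Pgc, the sums were 13608 and 12044 TPM and the median member level was 54.5 TPM. In bulk tissue, fewer muscle cells and less RNA per muscle cell cannot be told apart.

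**Figure D1:**
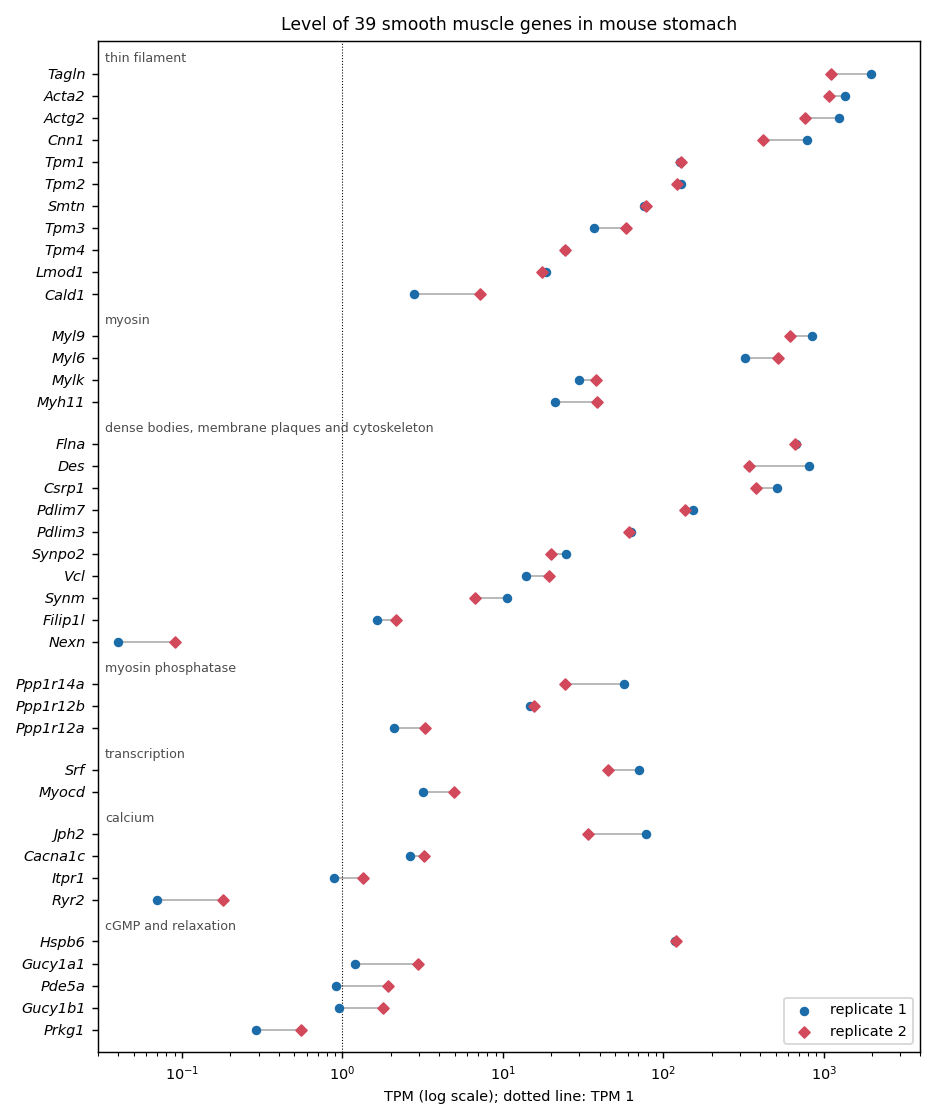
Level of each of the 39 genes in TPM (log axis) in replicate 1 (circles) and replicate 2 (diamonds), grouped by role and ordered by mean level. The actins, Tagln, Cnn1, Myl9 and Des stand near the right, and most calcium and cGMP genes lie below 10 TPM, with Hspb6 and Jph2 as the exceptions.

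The thin filament genes held the highest levels. Tagln, which encodes the actin-bundling protein transgelin (chromosome 9, 45929619 to 45936058 on mm10), had 1970 TPM in replicate 1 and 1111 TPM in replicate 2, the 47th highest mean of all genes. Acta2, the smooth muscle alpha actin gene (chromosome 19, 34241090 to 34255590), had 1352 and 1074 TPM. Actg2, the gamma actin of visceral muscle (chromosome 6, 83512905 to 83536265), had 1239 and 760 TPM. All of these were higher in replicate 1. Cnn1 encodes calponin, which binds actin and slows the myosin motor, and had 780 and 417 TPM.

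Among muscle actins, Acta2 made up 43.5% ± 1.83 of the TPM (SD, n = 2) and Actg2 35.1% ± 4.93, while Acta1 of skeletal muscle made up 20.2% ± 2.67 and Actc1 of heart muscle 1.19% ± 0.421. The order of Acta2 and Actg2 was the same in both libraries. The nonmuscle actin Actb, expressed by most cells, was higher than either, at 6147 and 4423 TPM.

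Tropomyosins lie along the actin filament and gate its contact with myosin. Tpm1 had 128 and 129 TPM, and Tpm2 had 130 and 121 TPM, so the order of these genes differed between the libraries and their levels did not separate. Tpm3 followed with 36.9 and 58.9 TPM and Tpm4 with 24.5 and 24.4 TPM. Tpm1 and Tpm2 together made up most of the tropomyosin TPM, with 39.4% ± 0.911 and 38.5% ± 3.14. The share of Tpm3 parted most between the libraries, at 17.7% of the tropomyosin TPM in replicate 2 and 11.6% in replicate 1.

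The remaining thin filament genes were lower. Smtn, which encodes the contractile-cell protein smoothelin, had 75.4 and 78.2 TPM, and Lmod1, which encodes the actin nucleator leiomodin, had 18.6 and 17.6 TPM. Cald1 encodes caldesmon, an actin-binding inhibitor of the myosin motor, and was the lowest of the 11 thin filament genes at 2.81 and 7.22 TPM. Its level lay far from that of Cnn1, the other inhibitor of this group, in both libraries.

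**Figure D2:**
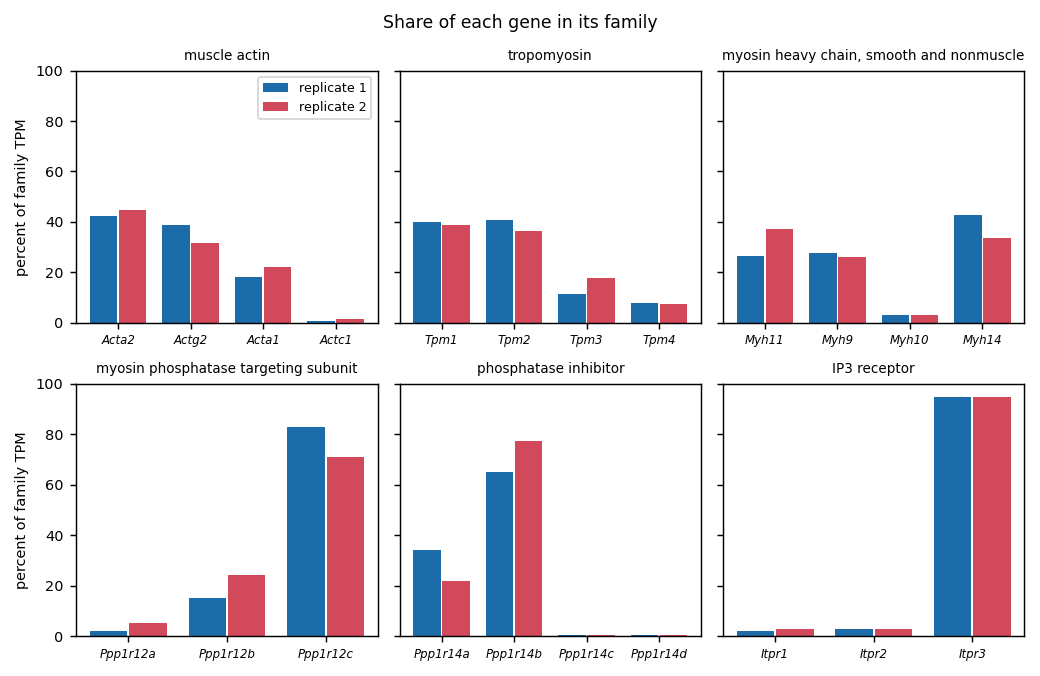
Percent of the summed TPM of a gene family held by each gene in replicate 1 (left bar) and replicate 2 (right bar). Acta2 and Actg2 lead the muscle actins and Tpm1 and Tpm2 the tropomyosins, while Ppp1r12c, Ppp1r14b and Itpr3, which are not among the 39 genes, lead the families of phosphatase targeting subunits, phosphatase inhibitors and IP3 receptors.

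The myosin genes differed widely in level. Myl9, the regulatory light chain that the kinase phosphorylates (chromosome 2, 156775420 to 156781658), had 849 and 620 TPM. Myl6, the essential light chain shared with nonmuscle cells, had 322 and 517 TPM. Myh11, the smooth muscle heavy chain (chromosome 16, 14194535 to 14291372), had 21.1 and 38.8 TPM. The light chains thus stood far above the heavy chain in both libraries, and Myl9 alone of the 4 was higher in replicate 1. Mylk, the light chain kinase gene, had 29.7 and 38.3 TPM.

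Among heavy chains of the smooth muscle and nonmuscle kind, Myh11 held 26.6% of the TPM in replicate 1 and 37.2% in replicate 2. The nonmuscle genes Myh14 (42.7% and 33.7%) and Myh9 (27.8% and 26.0%) held shares of similar size in TPM, and the order of Myh11 among them changed between the libraries. Myh14 had fewer read pairs, 3016 and 4350 against 7853 and 17153 for Myh11. Its TPM used effective transcript lengths of 1534 and 1804 bases, while its longest coding transcript has 6499. The share of Myh14 therefore depends on the transcript length used.

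The anchoring and cytoskeletal genes were led by Flna, Des and Csrp1. Flna, the actin crosslinker filamin A (chromosome X, 74223461 to 74249820), had 670 and 661 TPM. Its level rests in large part on a noncoding transcript of 738 bases, to which the deposited tables give 56.4% of the gene's TPM in replicate 1 and 43.1% in replicate 2 but only 10.2% of its read pairs on average. Computed from read pairs per length of the longest coding transcript, a scale chosen after the data were seen, Flna was at 356 on a scale summing, like TPM, to the same total, while Des, at 573 TPM, was at 917 on it. The order of Flna and Des in mean level therefore depends on the scale, and in TPM their order also differed between the libraries. Myl6 and Synpo2 also came out lower on it, at 198 and 13.2, and Srf higher, at 147, than their mean TPM of 419, 22.4 and 58.0. Ppp1r14a (24.2 on it, 40.6 in mean TPM) and Prkg1 (0.27 on it, 0.42 in mean TPM) also came out lower. So did, by less, Myocd (3.12 on it), Cacna1c (2.29), Tpm1 (114), Myl9 (668) and Cald1 (4.59). The remaining members all came out higher, and the median member level was 49.3 on this scale against 34.0 in TPM. A rise such as that of Des was thus shared by most members. Des, the intermediate filament protein desmin (chromosome 1, 75360329 to 75368579), had 806 and 340 TPM.

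Csrp1, a LIM protein of the actin cytoskeleton, had 510 and 378 TPM. Pdlim7 had 154 and 136 TPM and Pdlim3 62.4 and 60.9 TPM, both PDZ and LIM domain proteins of actin-anchoring structures. Vcl, which encodes vinculin of the membrane plaque, had 14.0 and 19.5 TPM. Synpo2, an actin-binding protein of dense bodies also called myopodin, had 24.8 and 20.0 TPM, and Synm, the intermediate filament protein synemin, had 10.6 and 6.72 TPM. Vcl, Synpo2 and Synm thus lay well under Des in both libraries. Filip1l, a filamin-interacting protein, had 1.63 and 2.17 TPM. Nexn, which encodes the actin-binding protein nexilin, was close to the counting floor with 5 and 14 read pairs (0.040 and 0.090 TPM).

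Myosin phosphatase genes were modest in level. Ppp1r14a, which encodes the inhibitor CPI-17, had 56.8 and 24.3 TPM. Ppp1r12b, a targeting subunit known from heart and skeletal muscle, had 14.8 and 15.7 TPM, and Ppp1r12a, the targeting subunit MYPT1, had 2.09 and 3.26 TPM. Ppp1r12b exceeded Ppp1r12a in both libraries. Ppp1r12c, a further targeting subunit that is not among the 39 genes, had 81.4 and 46.3 TPM and made up 76.9% ± 8.41 of the family.

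Of the transcription factors, Srf had 70.8 and 45.3 TPM, and Myocd, its muscle-restricted coactivator, had 3.18 and 4.98 TPM. Srf was higher than Myocd in both libraries. Srf was higher in replicate 1 and Myocd in replicate 2.

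The calcium genes were low apart from Jph2. Jph2 encodes junctophilin, which holds the internal store close to the cell membrane (chromosome 2, 163336242 to 163397993), and had 78.1 and 33.7 TPM. Cacna1c, the pore of the L-type calcium channel, had 2.63 and 3.24 TPM. Itpr1, the inositol trisphosphate receptor of smooth muscle stores, had 0.890 and 1.35 TPM, and Ryr2, the ryanodine receptor best known from the heart, had 0.070 and 0.18 TPM (69 and 210 read pairs). Each of the 3 channel genes was higher in replicate 2 and Jph2 in replicate 1. Within its family Itpr1 held 2.38% ± 0.464 of the TPM, against 94.8% ± 0.25 for Itpr3, a receptor that secretory epithelia also express.

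Most genes of the relaxation pathway were low. The exception was Hspb6, a small heat shock protein that cyclic nucleotide kinases phosphorylate, with 118 and 119 TPM. Gucy1a1 and Gucy1b1, the subunits of the nitric oxide receptor guanylyl cyclase, had 1.20 and 2.97 TPM and 0.95 and 1.80 TPM. The alpha subunit was higher than the beta subunit in both libraries. Pde5a, the phosphodiesterase that breaks cyclic GMP down, had 0.910 and 1.91 TPM. Prkg1, the cyclic GMP-dependent kinase, had 0.29 and 0.55 TPM, from 44 and 100 read pairs. All 4 of these genes were higher in replicate 2 and none passed 3 TPM in either library.

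The replicates were compared as the log2 ratio of scaled read pairs, replicate 2 over replicate 1, with a 95% interval that covers counting error only. Over all 39 members 21 were higher in replicate 2 and 18 in replicate 1, with a median ratio of 0.014, beside -0.15 over the 7047 genes that averaged 5 TPM or more and -0.048 over the 11582 that averaged 1 TPM or more. Of these 11582 genes, 54.3% were higher in replicate 1. Because the median of all genes is itself below 0, the members' ratios can be read against it. At a mean TPM of at least 1, 3 of 36 members were at least 2-fold higher in replicate 2, where 2.66% of all genes were, and 3 of 36 were at least 2-fold higher in replicate 1, where 5.96% of all genes were. The edgeR common dispersion of this pair of libraries corresponds to a coefficient of variation of 0.295, and the SD of the log2 ratio was 0.70 over members and 0.66 over genes that averaged 1 TPM or more.

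The 3 higher in replicate 1 were Des at -1.28 (interval -1.30 to -1.27), Jph2 at -1.25 (-1.28 to -1.21) and Ppp1r14a at -1.20 (-1.35 to -1.05). The 3 higher in replicate 2 were Gucy1a1 at 1.11 (0.92 to 1.31), Cald1 at 1.03 (0.88 to 1.19) and Pde5a at 1.02 (0.85 to 1.21). Only the intervals of the first 3 lay wholly past 2-fold, as did those of 4.15% of all genes in that direction and 1.12% in the other. Under every scaling tried, 12 members kept a ratio below 0, among them Acta2, Actg2, Tagln, Cnn1, Myl9, Des and Csrp1, and 18 kept a ratio above 0, among them Myh11, Myl6, Mylk, Tpm3 and Vcl. The sign of the other 9, Tpm1, Tpm2, Tpm4, Lmod1, Flna, Pdlim3, Pdlim7, Ppp1r12b and Hspb6, depended on the scaling.

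**Figure D3:**
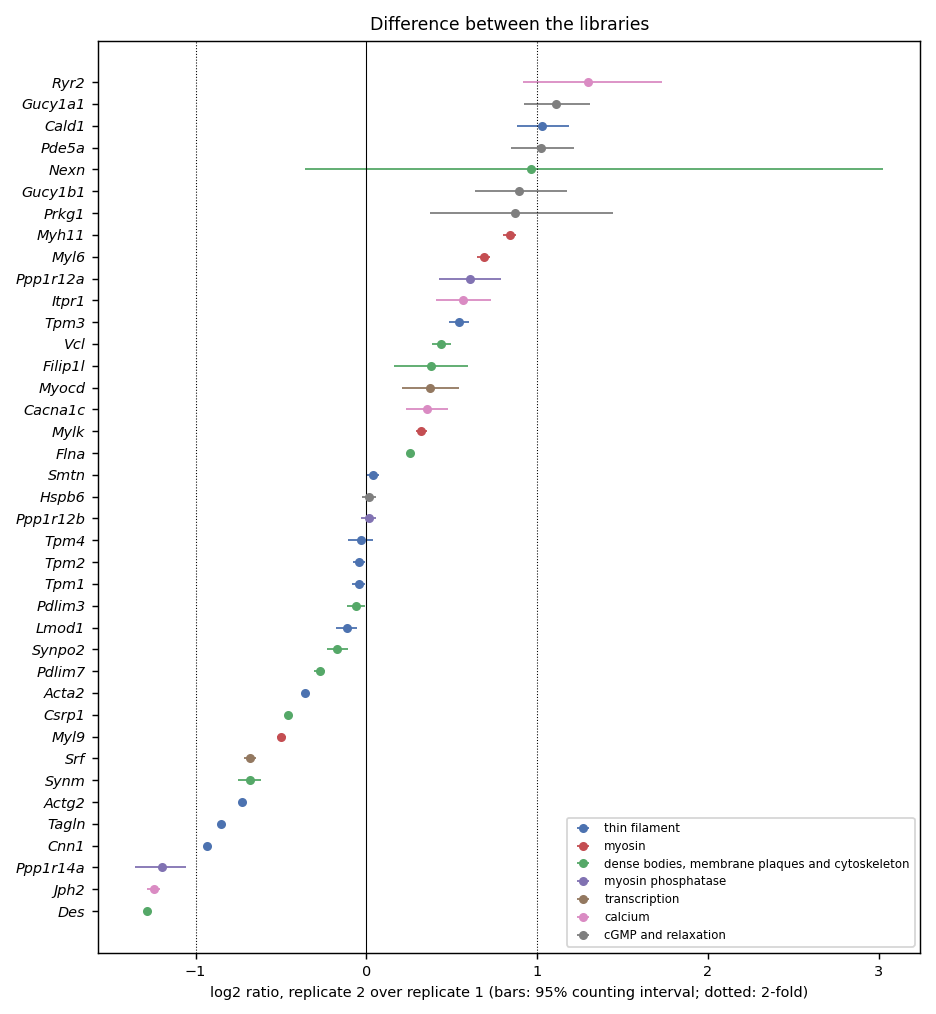
Log2 ratio of replicate 2 over replicate 1 for each member, ordered by ratio and coloured by role, with the 95% counting interval as a bar and dotted lines at 2-fold. Des, Jph2 and Ppp1r14a lie wholly beyond the lower line, and the interval of Nexn, which rests on 5 and 14 read pairs, is the widest.

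Contractile genes did not move as a block. Tagln (-0.85), Cnn1 (-0.93), Actg2 (-0.73) and Acta2 (-0.36) were higher in replicate 1, whereas Myh11 (0.84), Myl6 (0.69) and Mylk (0.32) were higher in replicate 2. Abundant members were mostly higher in replicate 1 (10 of 13 at a mean TPM of at least 100, median -0.36), as were 80.8% of the 723 protein-coding genes at that level, median -0.34. Low members were mostly higher in replicate 2 (9 of 10 between 1 and 10 TPM, median 0.59), while 58.0% of the 6109 protein-coding genes at that level were, median 0.091.

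The ratio also moved with the GC content of the longest coding transcript. Across the 39 members, whose GC content ran from 39.6% to 64.4%, Pearson's r between GC content and ratio was -0.66 and Spearman's rank coefficient -0.66. Over the 36 members averaging 1 TPM or more they were -0.64 and -0.60, beside -0.31 and -0.35 over 11036 protein-coding genes at that level. These are descriptions across genes of the same libraries, and genes are not independent replicates. At 1 TPM or more, all 4 members under 45% GC were higher in replicate 2 (median ratio 0.75), beside 64.3% of 1509 protein-coding genes (median 0.21). Of the 9 members with 55% GC or more, 2 were higher in replicate 2 and 7 in replicate 1 (median -0.50). Of 3564 protein-coding genes of such GC content, 25.5% were higher in replicate 2 (median -0.25), so these too were mostly higher in replicate 1. GC content moved with level too, with a Spearman's rank coefficient of 0.61 over those 36 members and 0.37 over the same 11036 genes. Relative to genes of like GC content, a scale added after the data were seen, 3 members differed at least 2-fold. They were Des (-1.07), Cald1 (1.00) and Gucy1a1 (1.09), while Jph2 stood at -0.80 and Ppp1r14a at -0.75. The part of GC content in these ratios was not tested.

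**Figure D4:**
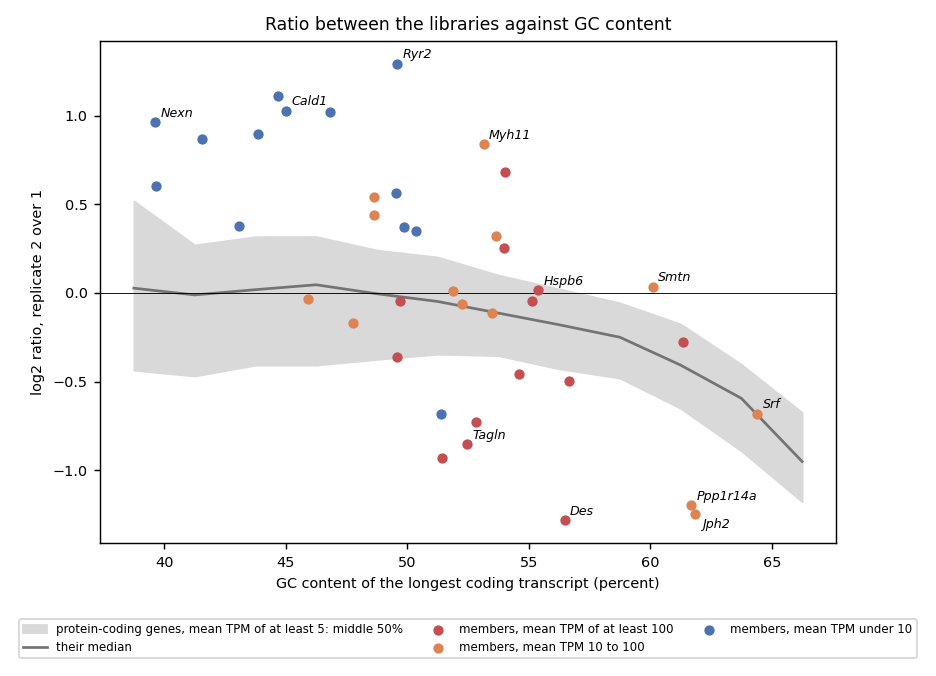
Log2 ratio of replicate 2 over replicate 1 against GC content (percent) for the 39 members, coloured by level, over the median and middle 50% of protein-coding genes averaging 5 TPM or more. Jph2, Ppp1r14a and Srf sit at the GC-rich end, where the median of all genes also lies below 0, and Nexn at the GC-poor end.

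Transcript tables split 25 members over more than 1 transcript, and 12 of these had at least 2 transcripts with 5% or more of the gene's TPM in both libraries. In these 12 the leading transcript held a median of 52.4% of the TPM. Tpm1 was the most divided, with 5 such transcripts, led by Tpm1-215 at 45.4% and 40.8%. Smtn-204 led its gene with 51.4% and 55.6%, and Tpm2-201 with 52.6% and 60.9%. By mean TPM, noncoding transcripts led in 3 genes. They were Flna, Myl9, where the 619-base Myl9-204 held 62.5% and 65.2%, and Cacna1c, where a 2374-base transcript held 44.8% in replicate 1 and 20.7% in replicate 2. By read pairs coding transcripts led in these genes. Myl9-204 held 42.8% and 46.3% of read pairs, against 57.2% and 53.6% for the coding Myl9-201. The Cacna1c transcript held 16.4% and 7.15%, against 32.0% and 49.0% for the coding Cacna1c-207. Jph2-202 held 91.9% and 87.7%, and Synm-201 held 76.2% and 69.0% against its longer form.

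Splice junction reads, pooled over the series on mm9, gave a separate view. Junctions were tied to 36 of the 39 members by intron length and spacing, all but Lmod1, Nexn and Filip1l. Of the 532170 junction reads in the tied genes together, 99.5% fell on annotated introns. By gene this share was lowest in Synpo2 (92 of 175 reads, 52.6%), Prkg1 (78.0%) and Ppp1r12b (86.6%). Reads per annotated junction varied widely within a gene (2 to 1905 in Myh11), so inclusion is given from the upstream and from the downstream junction of an exon separately, with exact Clopper-Pearson intervals for counting error.

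Myh11 was spliced to both head forms and both tail forms. The 21-base head exon shown above, which defines SM-B, a form known for faster contraction in visceral muscle, was included in 62.1% of reads (53.9 to 69.8) by its upstream junction and 52.5% (43.2 to 61.6) by its downstream junction, from 95 and 64 reads against 58 that skipped it. The 39-base exon near the tail, whose inclusion gives the shorter SM2 tail and whose skipping gives SM1, had 69.5% (64.1 to 74.5) and 43.4% (35.9 to 51.1). The intervals of the 2 estimates did not overlap for the tail exon, nor for the exons of Vcl, Smtn, Ppp1r12a and Srf below, so junction reads give these shares only as a range. The tail exon also differed between the R1 and R2 reads described below. Its inclusion, averaged over both junctions, was 44.9% in R1 and 65.6% in R2, and that of the head exon was 69.1% and 53.9%.

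Tpm1 was spliced to its smooth muscle exon far more than to the partner exon. Of 3582 reads into exon 3, 1517 came from the exclusive exon nearer the first exon, 39 from the exon nearer exon 3, and 2026 from an internal start of the shorter tropomyosins. Out of the first exon, 2787 reads joined the nearer exon and 632 the farther one, 81.5% (80.2 to 82.8) of the sum. Both ends favoured the same exon, by unequal amounts.

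The exons given next were picked with their junction reads in view. Vcl included the 204-base exon that makes metavinculin, the muscle form of vinculin, in 53.1% (40.2 to 65.7) and 76.0% (67.5 to 83.2) of reads. Its inclusion junctions were not both annotated introns in GENCODE M21. The 24-base Flna exon was included in 28.5% (26.9 to 30.2) and 31.8% (30.2 to 33.5), and the 165-base Smtn exon in 23.3% (19.4 to 27.7) and 14.6% (11.2 to 18.6). Skipping was thus the main form for Flna and Smtn. The 45-base Myl6 exon was included in 86.5% (83.4 to 89.2) and 89.6% (87.1 to 91.7). The 171-base Ppp1r12a exon had 85.0% (76.5 to 91.4) and 59.5% (42.1 to 75.2), and the 33-base Cacna1c exon had 68.8% (41.3 to 89.0) and 75.0% (50.9 to 91.3), from 11 and 15 reads against 5 that skipped it. The deposited table divides its reads into R1 and R2, which no source used here ties to a library. Averaged over both junctions, 3 of these exons parted most between them. This inclusion was 93.5% in R1 and 44.8% in R2 for Vcl, 93.1% and 64.1% for Ppp1r12a, and 100% and 47.2% for Cacna1c, whose 5 skipping reads were all R2. The Smtn exon averaged 17.6% and 19.8%, but its junctions parted in opposite directions. They gave 16.9% in R1 and 31.2% in R2 upstream, and 18.3% and 8.45% downstream. The 192-base Srf exon, whose skipping gives a form known to lack part of the activation region, was included in 97.1% (96.5 to 97.6) and 93.8% (92.6 to 94.9).

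**Figure D5:**
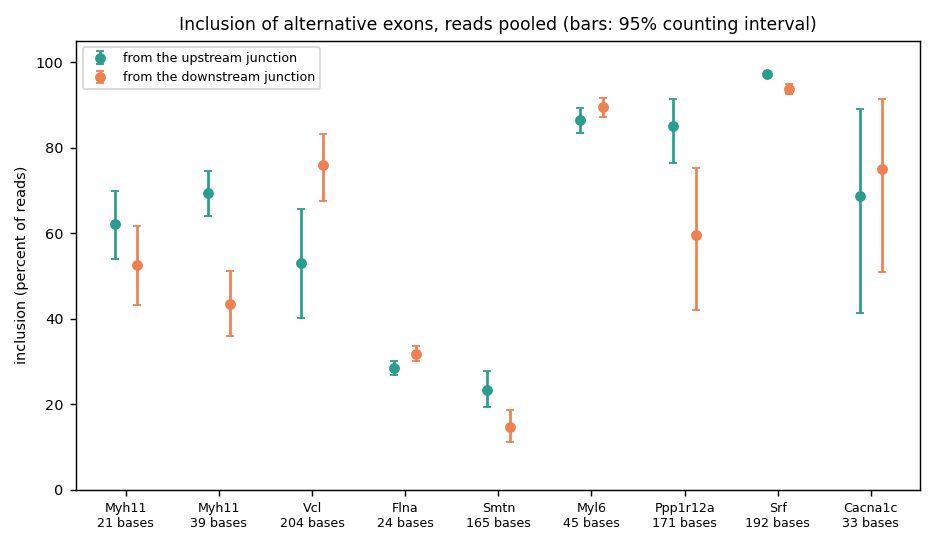
Inclusion of 9 alternative exons (percent of reads), computed from the upstream and from the downstream junction against the skipping junction, with 95% Clopper-Pearson intervals. The Flna and Smtn exons lie below 35%, the Myl6 and Srf exons above 80%, and the intervals do not overlap for the Myh11 tail exon, Vcl, Smtn, Ppp1r12a and Srf.

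Alternative starts and ends were also read from junctions. Smtn was spliced from its upstream start in 1881 of 1947 reads (96.6%), with 66 from the internal start. Tpm2 used its distal last exon in 150 of 194 reads (77.3%). At the downstream side, Pdlim3 used its single middle exon in 846 of 934 reads, but at the upstream side in 30 of 78, so those sides disagree. The last junctions of Mylk, which the short protein telokin shares with the kinase, had 291 and 1398 reads, while the junction just before them had 4. A like drop is seen elsewhere along Mylk, whose junctions ran from 1 to 1500 reads. For Prkg1, 11 of 11 reads came from the proximal start, which allows a share of the distal start of up to 28.5%. For Cald1, the junction of the proximal start had 38 reads and that of the distal start 24. Those introns share no splice site, so the counts give no share of starts.

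Genes around these, from a list of 122, were counted by role at a TPM of at least 1 in both libraries. Of the 122, 102 reached it, beside 48.9% of protein-coding genes. The median over all 122 was 14.0 TPM. Other actins and nonmuscle myosins were all detected (10 of 10), led by Actb, Actg1 (1142 and 992 TPM), Acta1 (587 and 530 TPM) and Myl12b (77.0 and 83.3 TPM). Dense plaque and adhesion genes were detected in 22 of 23 cases, with Actn4 at 238 and 222 TPM, Fhl1 at 165 and 202, Tns1 at 154 and 176 and Zyx at 119 and 90.5. Each of these 4 genes was higher than the member Vcl in both libraries. The TPM of Tns1 used effective transcript lengths of 2603 and 2193 bases, while its longest coding transcript has 9966.

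Of the dystrophin complex and caveolae genes 11 of 12 were detected, with Cavin3 at 164 and 79.1 TPM and Cav1 at 117 and 107 TPM. The TPM of Cav1 used effective transcript lengths of 380 and 464 bases, while its longest coding transcript has 2746. Its level therefore depends on the transcript length used. All 5 small heat shock protein genes were detected, led by Hspb1 at 2023 and 817 TPM and Cryab at 118 and 104 TPM. Hspb1 (-1.32) and Cavin3 (-1.07) were the listed genes averaging 5 TPM or more that differed at least 2-fold, both higher in replicate 1, as were 6.56% of all genes at that level (1.01% were that much higher in replicate 2).

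Of the genes of calcium supply and removal 16 of 23 were detected, among them the store-operated channel gene Orai1 (76.5 and 45.4 TPM) and Sln (53.7 and 48.2 TPM), which encodes an inhibitor of the store's calcium pump. The T-type channel Cacna1h, at 15.4 and 12.2 TPM, was higher than the member Cacna1c in both libraries.

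Receptors and G proteins of contraction were detected in 10 of 11 cases, with Gna11 at 59.6 and 59.6 TPM, Gna12 at 29.6 and 21.7, Tacr2, a tachykinin receptor, at 10.1 and 16.7 and Gna13 at 15.2 and 10.1. The muscarinic receptor Chrm3, which drives gastric contraction in response to acetylcholine, had 3.57 and 3.97 TPM. For cyclic nucleotide genes the count was 8 of 12, with Vasp at 269 and 203 TPM, Prkaca at 25.3 and 24.5, Mrvi1 at 12.7 and 17.8 and Npr2 at 6.72 and 11.3. All 11 transcription control genes were detected, led by Klf5 at 92.1 and 73.2 TPM and Gata6 at 67.6 and 41.7 TPM, with Mef2d at 51.4 and 45.5 and Foxf1 at 45.1 and 29.4. Mrtfa and Mrtfb, listed by their older symbols and found through RefSeq synonyms, had 29.1 and 25.9 TPM and 1.63 and 2.93 TPM.

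Markers of other cells that the stomach wall could hold were measured as a check. The smooth muscle markers (Acta2, Myh11, Actg2, Cnn1, Tagln and Des) summed to 6170 TPM in replicate 1 and 3742 TPM in replicate 2, with 1 of the 6, Myh11, higher in replicate 2. All 6 are among the 39 genes, so these sums restate their levels. Of 12 skeletal muscle markers 7 were detected and they summed to 898 and 875 TPM, with Acta1 at 587 and 530 and Ckm at 204 and 221. Of the fibre myosins, Myh1 had 2.29 and 6.46 TPM and Myh2 0.63 and 0.67 TPM, while Myh4 and Myh7 were at or below 0.1 TPM. Of 6 heart markers 3 were detected and they summed to 780 and 330 TPM, nearly all from Tnni3 at 747 and 290 TPM, with Myh6 at 0.030 and 0.040 TPM and Nppa at 0 and 0.090 TPM. Several members, among them Jph2, Des, Ryr2 and Nexn, are also expressed in these muscles.

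Fibroblast markers summed to 205 and 303 TPM (7 of 7 detected), endothelial markers to 181 and 200 TPM (6 of 7), pericyte and vascular muscle markers to 38.1 and 49.7 TPM (5 of 6), markers of interstitial cells of Cajal to 25.4 and 32.7 TPM (2 of 3), and neuron and glia markers to 35.9 and 28.4 TPM (4 of 7). The first 4 of these sums were higher in replicate 2, like the low members, while the smooth muscle sum was higher in replicate 1. Markers averaging 1 TPM or more were also counted by ratio. Higher in replicate 2 were 6 of 7 fibroblast, 5 of 6 endothelial, 4 of 6 pericyte and vascular muscle and 3 of 3 Cajal cell markers. So were 3 of 5 neuron and glia markers, although their sum was lower there. The part of other cells in the members' ratios was not tested. Epithelial genes, the tissue check, were all detected (7 of 7) and summed to 156972 TPM in replicate 1 and 204403 TPM in replicate 2, so this sum too was higher in replicate 2.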

How the data were processed

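Both libraries were sequenced as stranded paired reads of 76 nucleotides from polyadenylated RNA, per the labels. The authors deposited expected counts, TPM, FPKM and a posterior mean TPM per gene, and expected counts, TPM and the percent of each gene held by each transcript, on mm10 with GENCODE M4 models, per the README. Which quantifier and aligner made them is not stated in these sources. They also deposited counts of reads per splice junction on mm9, with a reproducibility score whose definition is not given. No coordinates were converted between builds. The contig table was not used.

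Expected counts were rounded and scaled by TMM in edgeR 4.0.16 with a prior count of 2, and DESeq2 1.42.0 size factors were an alternative. The procedure was checked on simulated data. Replicate 1 held 52363597 and replicate 2 held 62452468 expected read pairs, and reads are not independent molecules, so intervals cover counting error only. Members were listed by symbol; of other pathway genes up to 4 of highest mean TPM per role, and those averaging 5 TPM or more that differed 2-fold, are named. Myh9, Myh14, Itpr3, Cacna1h, Chrm3, Mrtfa and Mrtfb were named after their values were seen. Some listed genes are not reported here. The members and lists were chosen with earlier results of these data known. Posterior SDs of member counts were at most 0.0267% of the count.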

Additional observations from a re-analysis of the deposited data

How the results depend on the processing

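The median member level of 34.0 TPM became 37.4 in FPKM, 54.5 without Clps and Pgc and 49.3 from read pairs per length of the longest coding transcript, and leaving out 1 library gave 29.7 to 33.7. The summed level was 12826 TPM without Clps and Pgc, and 6897 to 9585 TPM with 1 library left out. Members detected numbered 33 to 36 with 1 library left out. The median log2 ratio of 0.014 was -0.0095 with DESeq2 size factors, 0.047 by library size, 0.074 by spike-in total, 0.16 centred on all genes, 0.18 centred on genes of like GC content and -0.088 over members with a mean TPM of at least 5. The count of 6 members differing 2-fold became 3 where the interval had to lie past 2-fold and 3 relative to genes of like GC content. The leading transcript share of 52.4% became 64.5% by read pairs and 69.0% among coding transcripts, and 51.8% to 54.1% with 1 library left out. The median exon inclusion of 64.6% over 9 exons became 57.3% with junctions whose reproducibility value was 0.1 or lower (7 exons, without those of Ppp1r12a and Cacna1c), 90.2% from R1 reads and 53.9% from R2 reads. Members with a CArG box numbered 12 with 1 mismatch. Causes were not tested. No paired analysis was possible because there is only 1 group. The 3 lowest genes are limited by depth, Nexn most.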

Other observations

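The junction table divides each count into R1 and R2, which the sources used here do not tie to a library. The Vcl exon of 204 bases was included in 93.1% of R1 reads and 20.0% of R2 reads by its upstream junction, from 27 and 7 inclusion reads, and in 93.9% and 69.6% by its downstream junction. The distal start of Cald1 had 0 R1 reads and 24 R2 reads, while its proximal start had 19 and 19.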
